A study of Mus musculus with 3 samples.

Results

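Genes for antimicrobial and acute phase proteins, 9 of the 32285 genes in the count tables, were followed by symbol through single-cell RNA sequencing of mouse cornea and limbus: S100a8, S100a9, Lcn2, Ltf, Saa3, Ptx3, Lrg1, Pglyrp1 and Slpi. The series held 3 libraries, each the only one of its group. The groups were uninjured tissue, tissue injured with nitrogen mustard (NM) and treated with saline, and NM-injured tissue treated with losartan, a blocker of the angiotensin II type 1 receptor. All 3 were labelled wild type. The time after injury, the dose and the age of the mice are not given in the sources used here. Eyes were dissected to leave the cornea with its limbal rim, most conjunctiva was discarded, and cells were released with liberase and trypsin. With 1 library per group there is no spread between animals, so no p-value is given. Every interval is at 95% and covers counting error only.

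All 9 genes encode secreted or released proteins, and most are known both from neutrophils and from barrier epithelia. S100A8 and S100A9 form calprotectin, which binds zinc, manganese and calcium and is among the most abundant cytosolic proteins of neutrophils. Lipocalin 2 (Lcn2) binds bacterial siderophores, lactoferrin (Ltf) binds iron, the peptidoglycan recognition protein Pglyrp1 binds bacterial cell wall, and Slpi inhibits neutrophil elastase and other serine proteases. Serum amyloid A3 (Saa3), the long pentraxin Ptx3 and the leucine-rich glycoprotein Lrg1 are acute phase proteins that are also made locally in inflamed tissue. Lipocalin, lactoferrin and pentraxin 3 are stored in neutrophil granules, which are filled while the cells mature in the marrow.

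After filtering and removal of simulated doublets, 11233 uninjured, 5800 saline and 4919 losartan cells remained, with median depths of 11485, 4088 and 5933 unique molecular identifiers (UMIs, 1 per captured transcript). Libraries shared 4 to 19 kept cell barcodes. Cells were grouped into 25 clusters with the 9 genes kept out of the genes used, and clusters were named from marker lists that held none of them. Neutrophil-like cells numbered 1 (uninjured), 3026 (saline) and 1379 (losartan), the last 2 being 52.2% and 28.0% of the cells. Macrophage or monocyte-like cells numbered 3, 660 and 387, dendritic-like cells 0, 92 and 65, epithelial-like cells 8175, 1101 and 1921, and stromal fibroblast-like cells 402, 701 and 717. All 18 neutrophil markers had at least 1 UMI in the neutrophil-like cells of both injured libraries. So did all 22 epithelial markers in the epithelial-like cells and all 13 stromal markers in the stromal cells. The same lists named the clusters, and 1 UMI in a class is enough, so detection does not tell the classes apart. Saline neutrophil-like cells also held all 22 epithelial markers, at 530 CPM summed against 29231 CPM for the neutrophil markers. The injured and uninjured epithelium fell almost entirely in different clusters (5, 6 and 15 against 1, 3, 4, 10, 11, 13 and 18). The stroma did so too, with 303 of 402 uninjured cells in cluster 19, 685 of 701 saline cells in cluster 9, and the losartan cells split between cluster 9 (310 cells) and cluster 17 (370 cells). Each comparison of libraries within these classes is therefore also a comparison of clusters. A share of cells or of RNA in a class cannot separate fewer cells from less RNA per cell, and whether a library differs through its treatment or through its animal or preparation cannot be told apart.

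The genes lie on 5 chromosomes of GRCm38, and the gene identifiers in the annotation match those in the count tables for all 9. S100a8 (ENSMUSG00000056054, chr3:90668978-90670035, plus strand, 3 exons) and S100a9 (ENSMUSG00000056071, chr3:90692632-90695721, minus strand) are neighbours 22596 bases apart. Ptx3 (ENSMUSG00000027832, chr3:66219910-66225805, plus strand, 3 exons) is on the same chromosome. Lcn2 (ENSMUSG00000026822, chr2:32384633-32388252, 6 exons) and Slpi (ENSMUSG00000017002, chr2:164354070-164389095, 4 exons) are both on the minus strand of chromosome 2. Saa3 (ENSMUSG00000040026, chr7:46711998-46715700, minus strand) and Pglyrp1 (ENSMUSG00000030413, chr7:18871331-18890459, plus strand, 3 exons) are on chromosome 7. Ltf (ENSMUSG00000032496, chr9:111019271-111042767, plus strand) has 17 exons, and Lrg1 (ENSMUSG00000037095, chr17:56119678-56122001, minus strand) has 2. The spans cover the whole annotated gene, and the RefSeq starts used for the promoters need not coincide with their ends.

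Promoters are shown for 2 sets of genes that were high together in the same clusters: Lcn2, Saa3 and Ptx3 in losartan stroma (cluster 17), and Ltf and Pglyrp1 in injured epithelium (cluster 6). Each sequence is the 250 bases before the RefSeq start on GRCm38.p6, written 5′ to 3′ on the gene's own strand, with the matched motif in capitals. The coordinates are chr2:32387740-32387989 (minus) for Lcn2, chr7:46715677-46715926 (minus) for Saa3, chr3:66219637-66219886 (plus) for Ptx3, chr9:111019042-111019291 (plus) for Ltf and chr7:18884440-18884689 (plus) for Pglyrp1.
Lcn2: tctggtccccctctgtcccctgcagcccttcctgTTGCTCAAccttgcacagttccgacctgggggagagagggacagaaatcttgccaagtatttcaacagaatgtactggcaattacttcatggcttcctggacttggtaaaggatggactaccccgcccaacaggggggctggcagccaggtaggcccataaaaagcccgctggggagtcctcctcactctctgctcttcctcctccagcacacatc
Saa3: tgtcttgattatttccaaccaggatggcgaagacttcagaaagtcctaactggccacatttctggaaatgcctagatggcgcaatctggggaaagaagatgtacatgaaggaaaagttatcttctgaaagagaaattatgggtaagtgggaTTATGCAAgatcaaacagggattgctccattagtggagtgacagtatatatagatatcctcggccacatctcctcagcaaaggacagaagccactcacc
Ptx3: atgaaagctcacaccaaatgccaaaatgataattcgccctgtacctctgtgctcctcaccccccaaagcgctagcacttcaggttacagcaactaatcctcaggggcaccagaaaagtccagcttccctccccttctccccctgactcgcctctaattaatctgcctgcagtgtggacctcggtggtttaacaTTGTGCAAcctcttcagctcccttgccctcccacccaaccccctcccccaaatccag
Ltf: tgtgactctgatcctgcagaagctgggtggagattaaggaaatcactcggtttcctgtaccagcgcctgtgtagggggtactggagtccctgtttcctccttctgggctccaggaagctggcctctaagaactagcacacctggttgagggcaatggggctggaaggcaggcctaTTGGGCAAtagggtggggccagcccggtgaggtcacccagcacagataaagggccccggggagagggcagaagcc
Pglyrp1: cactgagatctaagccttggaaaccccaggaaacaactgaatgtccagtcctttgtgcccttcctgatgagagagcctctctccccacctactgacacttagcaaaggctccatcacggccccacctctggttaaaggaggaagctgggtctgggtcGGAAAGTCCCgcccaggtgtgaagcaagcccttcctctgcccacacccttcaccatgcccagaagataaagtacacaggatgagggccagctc
The capitals mark a C/EBP motif (TTGCNNAA, either strand) in the first 4 and an NF-kB motif in Pglyrp1. C/EBP factors and NF-kB are the textbook regulators of acute phase genes. The C/EBP letters were found in 6 of the 9 promoters (those of S100a9, Lcn2, Ltf, Saa3, Ptx3 and Slpi) and in 9.57% of the 32841 RefSeq promoters of this length. The match in Ptx3 lay 57 to 50 bases before the start, that in Ltf 75 to 68, that in Saa3 99 to 92 and that in Lcn2 216 to 209. The NF-kB motif was found in 1 of 9, that of Pglyrp1 (93 to 84 bases before the start), against 3.90% of all. STAT (TTCNNNGAA) and AP-1 (TGANTCA) letters were in none of the 9, against 7.02% and 6.75%. A match describes letters in this window and is not shown to be a bound site.

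Levels are given as CPM, the UMIs of a gene scaled to 1000000 UMIs of the class in a library. The 9 genes had 4 main sources. In the injured libraries S100a8, S100a9 and Lrg1 came mainly from neutrophil-like cells, and Ltf and Pglyrp1 from epithelium. Saa3 and Ptx3 came mainly from stroma in the losartan library, and Slpi came from several classes. In the saline library neutrophil-like cells held 97.6% of S100a8, 97.8% of S100a9, 96.7% of Lcn2 and 97.5% of Lrg1 UMIs. In the losartan library they held 96.8% of S100a8, 95.8% of S100a9 and 97.4% of Lrg1 but 51.5% of Lcn2 (50.01 to 52.99), with 47.0% of Lcn2 in stroma. Epithelium held 96.9% of saline and 97.5% of losartan Ltf, and 98.8%, 95.2% and 97.1% of Pglyrp1 in the uninjured, saline and losartan libraries. Saa3 was 68.4% neutrophil and 30.2% macrophage in saline, and 90.8% stromal in losartan. Ptx3 was 99.3% stromal in losartan, where the library held 3738 UMIs, against 73 in saline and 6 in the uninjured library. Slpi was split in saline between neutrophils (68.9%), macrophages (16.04%) and epithelium (14.6%), and in losartan between neutrophils (53.7%), epithelium (31.0%) and stroma (13.2%).

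**Figure D1:**
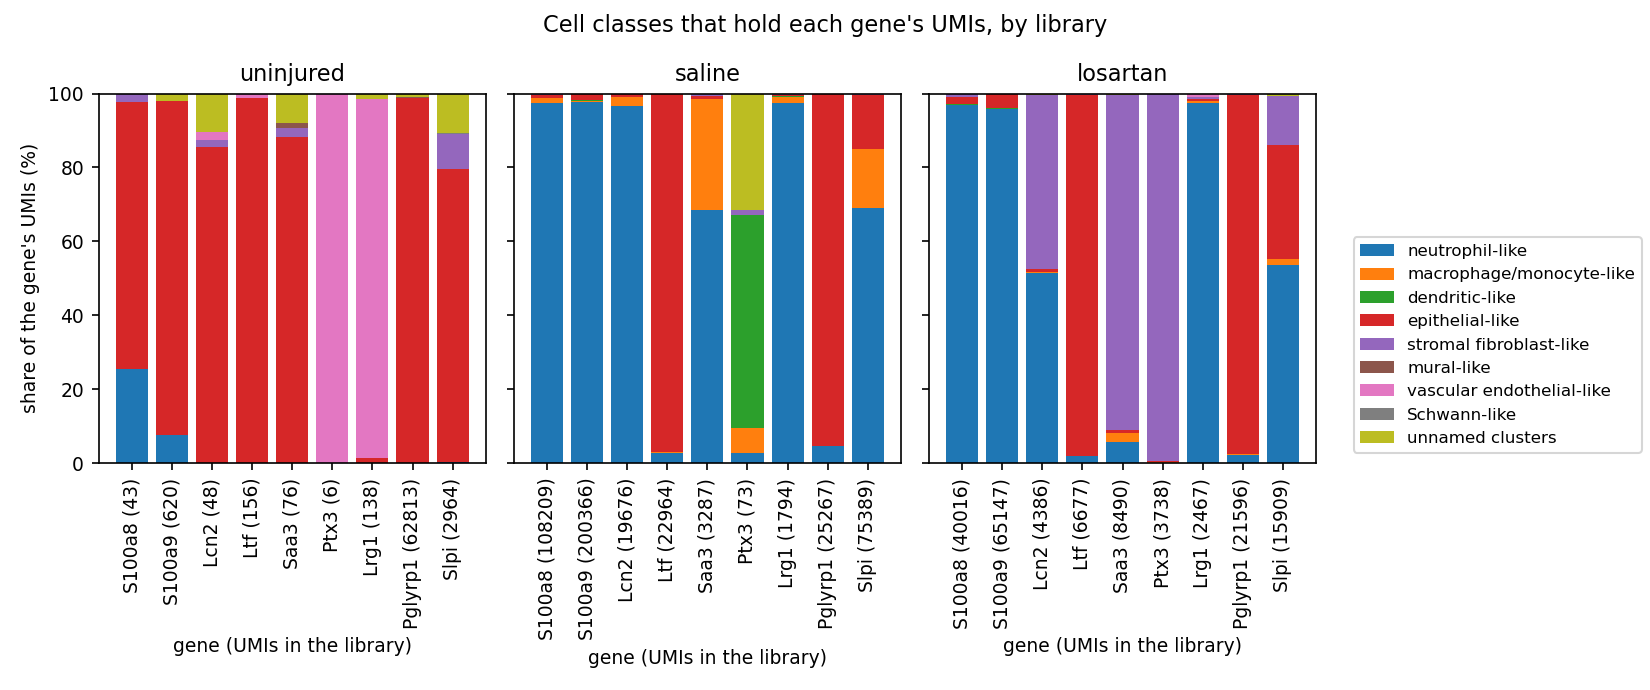
Stacked bars of the share of each gene's UMIs held by each cell class (percent), 1 panel per library, with the gene's UMIs in that library in parentheses. Neutrophil-like cells fill most of the S100a8, S100a9 and Lrg1 bars of both injured libraries, epithelium most of the Ltf and Pglyrp1 bars, and stroma holds 90.8% of Saa3 and 99.3% of Ptx3 in the losartan library.

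Before injury, 7 of the genes had few UMIs in the whole tissue. The uninjured library held 43 S100a8, 620 S100a9, 48 Lcn2, 156 Ltf, 76 Saa3, 6 Ptx3 and 138 Lrg1 UMIs among 144133577. Pglyrp1 had 62813 UMIs and Slpi 2964. The only neutrophil-like cell held 11 of the 43 S100a8 UMIs (25.6%) and 47 of the 620 S100a9 UMIs, while epithelium held 72.1% and 90.3%. Lrg1 came from blood vessel cells: 134 of 138 UMIs were in 40 vascular endothelial-like cells, at 388 CPM (325 to 459), with a UMI in 72.5% of them. The 28 losartan cells of that class held Lrg1 at 62.3 CPM (39.0 to 94.3), with a UMI in 28.6%, a ratio 6.23-fold lower (3.95 to 10.3). The 15 saline cells of that class held 0 Lrg1 UMIs at a median depth of 1332 UMIs. Their ratio to uninjured had an upper limit of 0.337. These are small sets of cells, and 2 of the 28 losartan cells held 50% of the losartan UMIs.

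**Figure D2:**
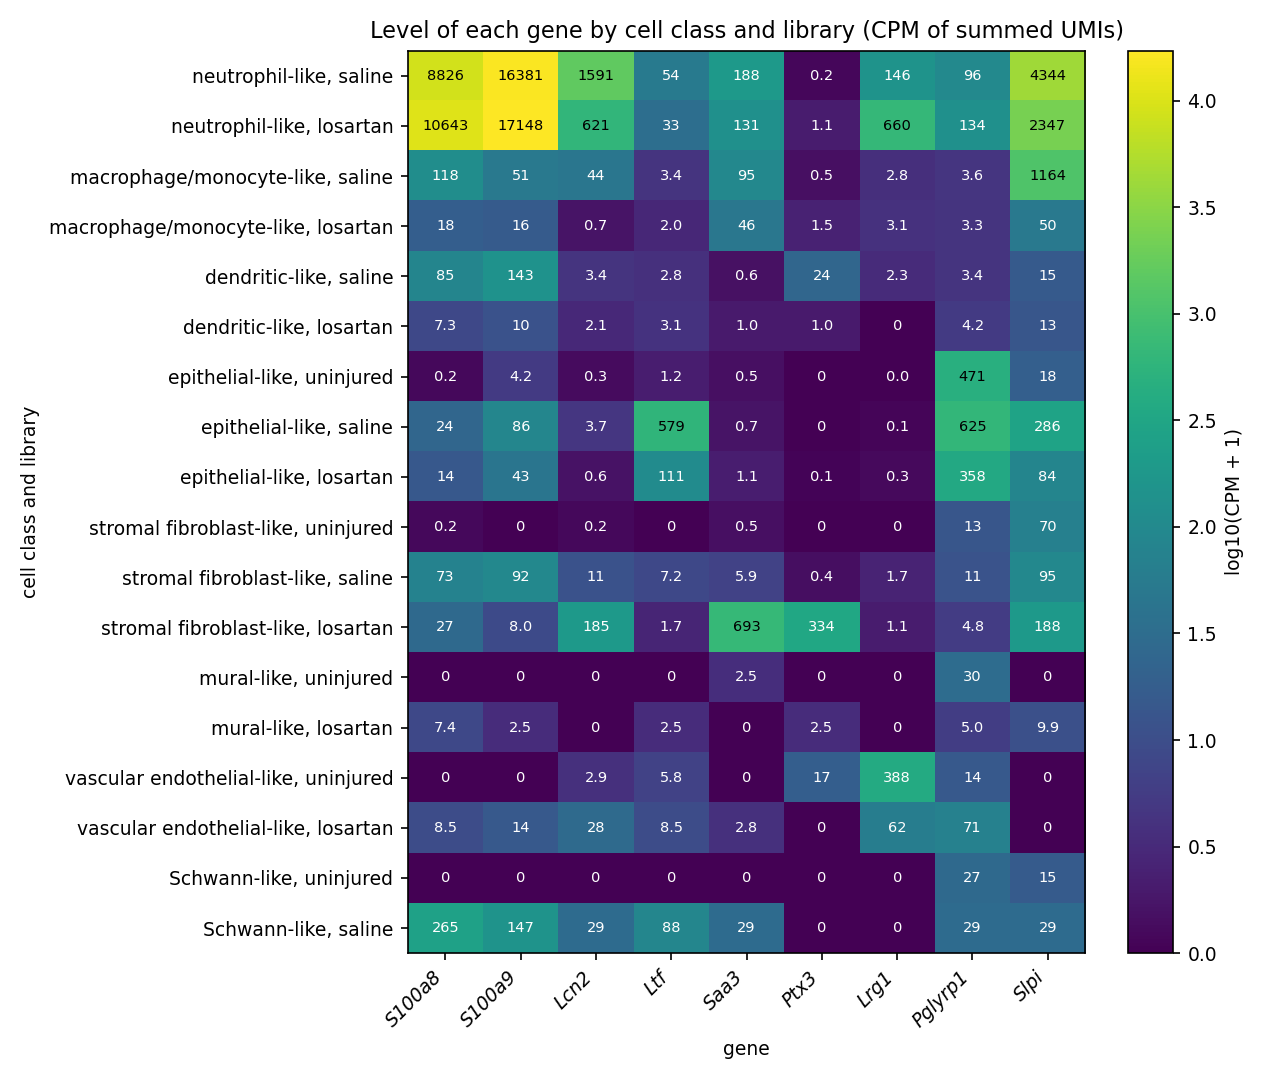
Heat map of the level of each gene (columns) in each cell class and library (rows); each cell prints the CPM of summed UMIs and its colour is log10 of CPM + 1. S100a8 and S100a9 stand highest in neutrophil-like cells (8826 to 17148 CPM), Ltf and Pglyrp1 in epithelium, and Saa3 and Ptx3 in losartan stroma; the mural, vascular and Schwann-like rows rest on 28 to 97 cells.

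S100a8 and S100a9 were the strongest of the 9 in neutrophil-like cells and did not differ by the fold rule between the injured libraries. S100a8 was at 8826 CPM (8772 to 8879) with saline and 10643 CPM (10537 to 10749) with losartan, and a UMI was present in 92.1% and 91.7% of the cells. S100a9 was at 16381 and 17148 CPM, in 93.4% and 93.1% of cells. Together they made up 2.52% of all neutrophil UMIs in saline and 2.78% in losartan. The class means hide a difference in its 2 clusters. Cluster 0, led by the cytokine genes Il23a, Ccl3, Tnf and Ccl4, took in 2129 of 3026 cells with saline and 255 of 1379 with losartan. Cluster 2, led by Retnlg, Cxcr2 and Csf3r, took in 897 and 1124. Within cluster 0, S100a9 was at 12014 CPM with saline and 7059.6 CPM with losartan (ratio 0.588, 0.571 to 0.605), and S100a8 at 6829 and 4537 CPM (0.664). Within cluster 2, S100a9 was at 26537 and 19520 CPM (0.736, 0.728 to 0.743) and S100a8 at 13469 and 12079 CPM (0.897). Both genes were thus lower with losartan in each cluster. Over the class S100a9 was near equal (ratio 1.05) and S100a8 was higher with losartan (1.21, 1.19 to 1.22). The cluster with the higher level held 897 of 3026 cells with saline and 1124 of 1379 with losartan. The 2 genes varied together from cell to cell, with Pearson correlations of log values between 0.74 and 0.85 in the 2 clusters and libraries, a description over cells that share a library and a depth.

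**Figure D3:**
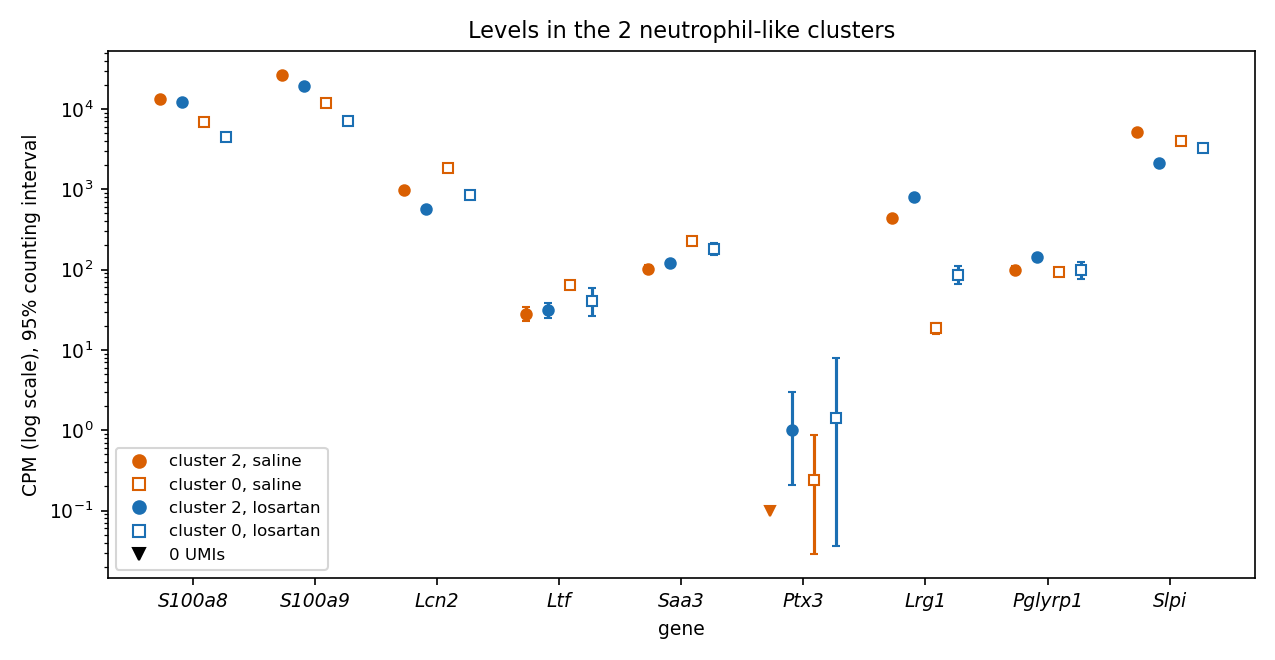
CPM of the 9 genes (log axis) in neutrophil-like clusters 2 (filled circles) and 0 (open squares) of the saline and losartan libraries, with 95% counting intervals; a triangle marks 0 UMIs and its height has no meaning. Lrg1 is higher and Lcn2 lower with losartan in both clusters, and S100a8 and S100a9 stand higher in cluster 2 than in cluster 0 in both libraries.

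Lcn2, Slpi and Ltf were lower and Lrg1 higher in the neutrophil-like cells of the losartan library. Lcn2 was at 1591 CPM (1569 to 1614) with saline and 621 CPM (595 to 647) with losartan, 2.56-fold lower (2.45 to 2.68), with a UMI in 64.4% and 42.1% of cells. It was lower in both clusters, from 1859 to 853 CPM in cluster 0 and from 969 to 566 CPM in cluster 2. Slpi was at 4344 CPM with saline and 2347 CPM with losartan, 1.85-fold lower (1.81 to 1.89). Its difference lay mainly in cluster 2 (5167 and 2127 CPM, ratio 0.412, 0.40 to 0.42) and was smaller in cluster 0 (3991 and 3280.1 CPM, ratio 0.822). Lrg1 was at 146 CPM (139 to 153) with saline and 660 CPM (634 to 687) with losartan, 4.51-fold higher (4.24 to 4.80), with a UMI in 20.4% and 56.8% of cells. Lrg1 was higher in cluster 2 (443 CPM in saline, 795 in losartan) than in cluster 0 (18.8 and 86.6 CPM), and within the clusters its ratio was 1.79 and 4.61.

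The remaining genes were low in these cells. Ltf was at 54.0 CPM with saline and 33.0 CPM with losartan, 1.64-fold lower (1.35 to 2.01), and within cluster 2 its ratio was 1.12 (0.837 to 1.505). Saa3 was at 188 and 131 CPM, found in 8.99% and 5.44% of cells, and Pglyrp1 at 96.0 and 134 CPM. Ptx3 had 2 and 4 UMIs in all. By the rule used throughout (1.5-fold on CPM + 5, among genes with at least 10 CPM in either library), 1 of the 8 measured members was higher with losartan and 3 were lower. Over all 6190 genes measured in these cells 12.5% were higher and 6.85% lower. The median log2 ratio was -0.22 for the members and 0.08 for all genes. The depth of the neutrophil-like cells was 3959.5 UMIs (median) in saline and 2612 in losartan, and the summed level of 22 epithelial markers in them was 529.8 and 1925 CPM. Whether depth or other RNA contributes to these ratios was not tested.

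Among the other granule and phagocyte antimicrobial genes in neutrophil-like cells, 12 of 17 were measured, of which 1 was higher and 3 lower with losartan. The oxidase subunits Ncf1 (453 and 414 CPM) and Cyba (314 and 289 CPM) were among the highest. The granule genes Camp (33.1 and 7.97 CPM) and Ngp (16.1 and 2.20 CPM), which are made in immature neutrophils, had the largest ratios, both lower. Of the inducing cytokines, receptors and transcription factors, 18 were measured, 5 higher and 3 lower: Il1b was at 14663 and 16701 CPM, Cebpb at 4643 and 4127 CPM, Tnf at 3331 and 1676 CPM and Il1a at 2677 and 1066 CPM. Of the other acute phase genes 1 was higher and 3 lower among 7 measured, the higher one being haptoglobin (Hp, 299 and 597 CPM). Of the receptors and partners 2 were higher and 4 lower among 15, with Trem1 at 1028 and 1669 CPM, Cd14 at 8487 and 7076 CPM and the ATP receptor P2rx7 at 46.1 and 6.87 CPM.

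Free RNA from the many neutrophils of the injured libraries can enter any droplet, so each class was given an expected level. The share carried into a class was taken from 10 neutrophil genes (such as Retnlg and Cxcr2), with like panels for 3 other sources, and multiplied by a member's level in the source. Several panel genes stood at levels of their own in other classes: Il1r2 was at 1305 and 1349 CPM in dendritic-like cells and made up 30.02 of the 41.4 CPM of the neutrophil panel in saline epithelium, Trem1 at 144 CPM in saline macrophages, and the macrophage gene Arg1 at 1725 CPM in saline epithelium against 102.6 CPM in uninjured epithelium. A second estimate therefore used 4 neutrophil genes (Retnlg, Cxcr2, Mrgpra2b, Stfa2l1) and 4 macrophage genes (C1qa, C1qb, C1qc, Ms4a7), chosen after these values were seen. The carried neutrophil share was 0.384% in saline epithelium, 0.489% in saline stroma and 3.40% in saline macrophages with the first panel, and 0.156%, 0.575% and 0.293% with the second. In the losartan library these shares were 0.109%, 0.121% and 1.57% with the first panel and 0.062%, 0.048% and 0.078% with the second, lower in all 3 classes. A level is called above free RNA where it is at least 3 times the expected value and its interval lies above 1. Droplets with a neutrophil and another cell carry RNA in the same way and are counted in the same share.

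**Figure D4:**
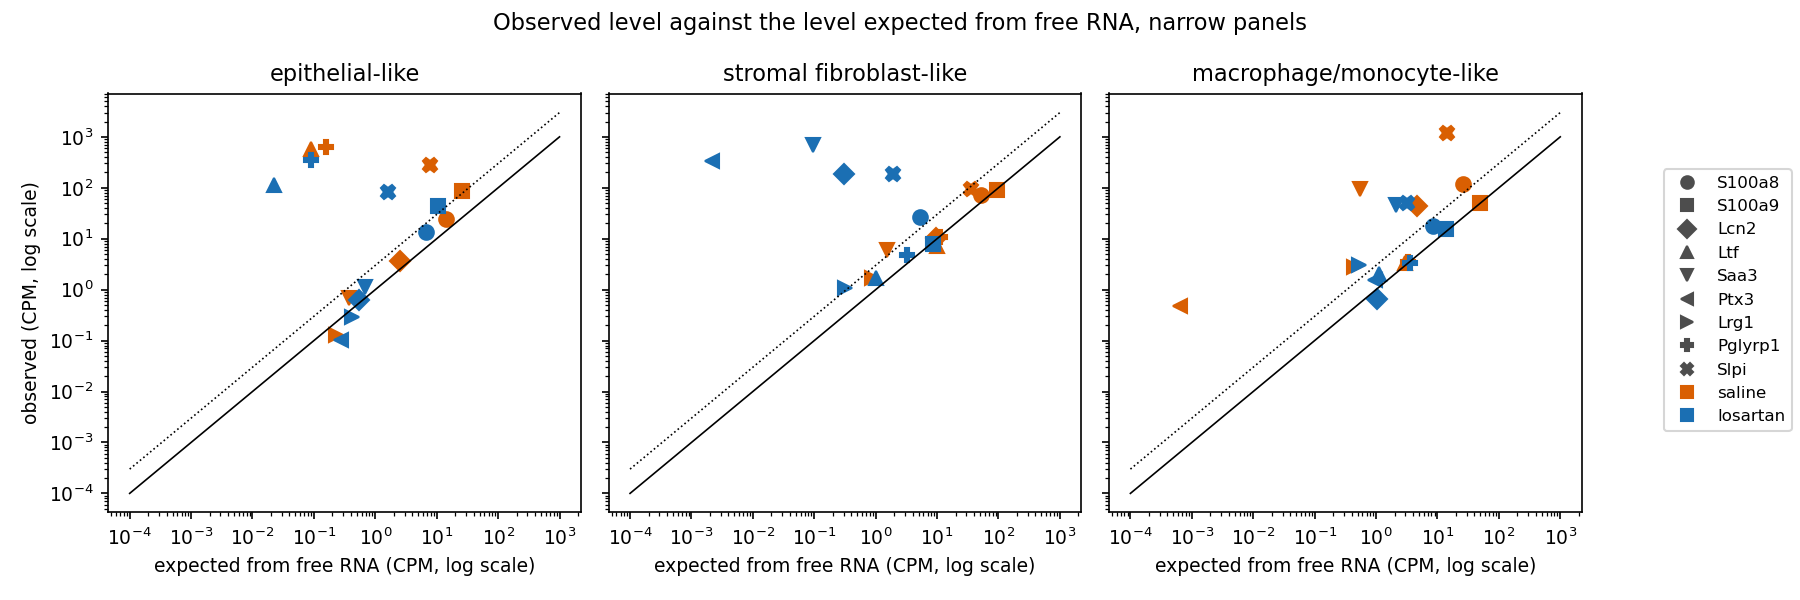
Observed CPM against the CPM expected from free RNA (both log axes) for the members in 3 classes of the injured libraries, by the second panels (called narrow in the title); the solid line marks equal values and the dotted line 3 times the expected. Ltf and Pglyrp1 in epithelium and Saa3, Ptx3, Lcn2 and Slpi in losartan stroma lie far above the lines, while S100a9 in stroma lies near the solid line (0.959 times expected in saline, 0.934 in losartan).

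Pglyrp1 was an epithelial gene before and after injury. It was at 471 CPM (467 to 475) in uninjured, 625 CPM (617.5 to 633.4) in saline and 358 CPM (353 to 363) in losartan epithelium. The saline level was 1.33-fold the uninjured one and did not pass the fold rule, and the losartan level was 1.75-fold lower (1.71 to 1.78) than the saline one. With each cell thinned to 1000 UMIs that last difference was no longer past 1.5-fold (log2 ratio -0.27 against -0.80). In uninjured epithelium it was concentrated in cluster 11, led by Asprv1, Ly6g6c, Krt78 and Psca, where it stood at 2291 CPM with a UMI in 98.1% of cells. It stood at 409 CPM in cluster 18, 287 in cluster 13, 101 in cluster 4 and between 17 and 27 CPM in clusters 1, 3 and 10. After injury it was in cluster 6, led by Sprr2f, Ltf, Sprr1a and Krt23, at 1213 CPM with saline and 737 CPM with losartan (ratio 0.607, 0.596 to 0.619). In clusters 5 and 15 it was between 37.2 and 100.3 CPM.

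Ltf was near 0 in uninjured epithelium and present in that of both injured libraries. It was at 1.17 CPM (154 UMIs) in uninjured, 579 CPM (571 to 586) in saline and 111 CPM (108 to 114) in losartan epithelium. The saline level was 495-fold the uninjured one (423 to 584), and the losartan level 5.21-fold lower than the saline one (5.07 to 5.36). A UMI was present in 0.281%, 34.4% and 23.2% of cells at median depths of 14246, 10568 and 29549 UMIs. With cells thinned to 1000 UMIs the shares were 0.0857%, 17.8% and 6.27%, and the levels were 455 CPM in saline and 146 CPM in losartan, a log2 ratio of -1.53 against -2.33 unthinned. Cluster 6 held nearly all of it, at 1168 CPM with saline and 238 CPM with losartan (ratio 0.204, 0.198 to 0.209), against 12.6 and 3.83 CPM in cluster 5 and 11.4 and 5.28 CPM in cluster 15. Few cells carried the signal: 34 of the 1101 saline cells held 50% of the Ltf UMIs. In uninjured epithelium 2 of the 8175 cells held 50% of the 154 UMIs, and the interval of the 495-fold ratio treats each UMI as independent. Ltf and Pglyrp1 tracked each other over the cells of cluster 6 (Pearson 0.636 in saline and 0.575 in losartan). Of the 34 Ltf and 24 Pglyrp1 cells holding 50% of the UMIs of saline cluster 6, 11 were the same, 32.4% and 45.8% of the 2 sets.

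**Figure D5:**
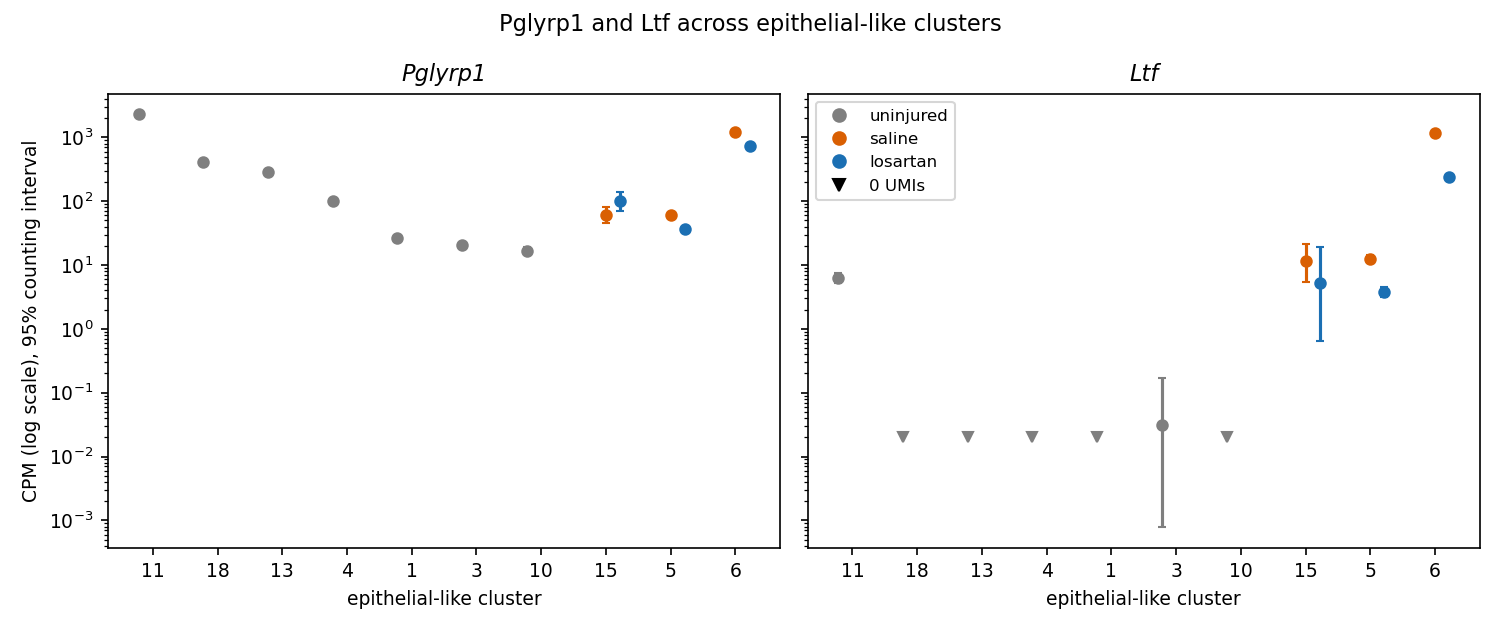
CPM of Pglyrp1 (left) and Ltf (right) on a log axis in each epithelial-like cluster, coloured by library, with 95% counting intervals; a triangle marks 0 UMIs and its height has no meaning. Pglyrp1 is highest in uninjured cluster 11 (2291 CPM) and in injured cluster 6, and Ltf is high in cluster 6 (1168 CPM in saline, 238 in losartan).

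Slpi in epithelium rested in part on 1 cell. It was at 17.8 CPM in uninjured, 286 CPM in saline and 84.2 CPM in losartan epithelium, but 1 saline cell held 5999 of the 10991 UMIs. Without that cell the saline level was 130 CPM, and the losartan level was 80.3 CPM without its own top cell. The log2 ratio of losartan to saline was -1.71 with all cells and -0.67 without the top cell of each library. It was -0.56 with cells thinned to 1000 UMIs, -0.38 with a minimum of 200 genes per cell and -0.37 with at most 10% mitochondrial UMIs, all 3 below the 1.5-fold rule. The saline to uninjured log2 ratio was 3.67 with all cells and 2.59 without the top cells. In cluster 5 the 2 injured libraries were close, at 82.9 and 92.7 CPM (ratio 1.12, 1.05 to 1.19).

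S100a8 and S100a9 were low in epithelium, and whether S100a9 was above the level expected from free RNA depended on the panel. S100a9 was at 4.25 CPM in uninjured, 85.8 in saline and 43.0 in losartan epithelium, and S100a8 at 0.235, 24.0 and 13.7 CPM. In uninjured epithelium 5 cells held 50% of the 560 S100a9 UMIs, and in saline 15 cells held 50% of 3297. In saline the observed S100a9 level was 1.23 times the expected one with the first panel and 3.34 times with the second, and in losartan 2.08 and 4.03 times. S100a8 was 0.484 and 1.72 times expected in saline, and 0.992 and 2.06 times in losartan. The ratio of S100a9 to S100a8 UMIs was 3.58 (3.33 to 3.86) in saline and 3.14 (2.90 to 3.40) in losartan epithelium, against 1.86 (1.84 to 1.87) and 1.61 (1.59 to 1.63) in the neutrophil-like cells of the same libraries. The intervals of the 2 classes do not overlap in either library, but they treat each UMI as independent, and the epithelial clusters differed. Cluster 6 held 2659 S100a9 and 412 S100a8 UMIs in saline, and 1830 and 254 in losartan. In cluster 5 the counts were nearer to each other, at 552 and 443 in saline and 669 and 539 in losartan. Cluster 15 held 86 and 66 in saline and 19 and 10 in losartan. Among the epithelial cells without a UMI of the first neutrophil panel (707 saline, 1538 losartan), S100a9 was at 43.0 and 38.4 CPM, Slpi at 87.2 and 86.2 CPM and Pglyrp1 at 260.4 and 188 CPM, each pair less than 1.5-fold apart. In the same cells S100a8 was at 26.6 and 14.1 CPM and Ltf at 212 and 51.3 CPM. These cells had median depths of 3054 UMIs in saline and 25328 in losartan, against 10568 and 29549 in the class. That panel includes Il1r2, which made up 30.02 of its 41.4 CPM in saline epithelium. The choice therefore does not select on neutrophil RNA alone. Lcn2 in epithelium was at 0.311 CPM (uninjured), 3.67 CPM (saline) and 0.632 CPM (losartan), and its saline level was 0.306 times the expected one with the first panel and 1.45 times with the second. Saa3 did not exceed 1.14 CPM in any library's epithelium, and Lrg1 and Ptx3 did not exceed 0.290 CPM.

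By the fold rule 4 of 5 measured members were higher in saline than in uninjured epithelium (S100a8, S100a9, Ltf and Slpi) and 0 were lower, where 20.1% of all genes were higher and 16.4% lower. Between losartan and saline 0 were higher and 5 of 5 lower over all cells of the class, where 2% of all genes were higher and 5.93% lower. Between losartan and uninjured epithelium 4 of 5 were higher and 0 lower, where 15.5% were higher and 18.5% lower. The median log2 ratios of the members were 3.29, -0.92 and 1.97, against 0.05, -0.08 and -0.02 for all genes. These comparisons share libraries, so their values are not independent. The 10-gene neutrophil panel summed to 41.4 CPM in saline and 14.6 CPM in losartan epithelium, of which Il1r2 made up 30.02 and 10.2 CPM. The carried share by the second panel, without Il1r2, was 0.156% and 0.062%. Neutrophil RNA was thus lower with losartan too, and its part in the lower member levels was not tested. The wider list of 18 neutrophil markers summed to 308 CPM in uninjured, 437 CPM in saline and 407 CPM in losartan epithelium, with 11, 17 and 17 of them detected and Cd177 at 0 in all 3. S100a8 passed the rule narrowly between losartan and saline (log2 ratio -0.63), not after median-of-ratios scaling (-0.57), and by more with cells thinned to 1000 UMIs (-1.40). Ltf and Pglyrp1 were above free RNA in both injured libraries with either panel, at between 389 and 6526 times the expected level. Slpi was 1.68 times expected in saline with the first panel and 36.8 times with the second, and 9.35 and 51.5 times in losartan. The saline Slpi values include the single cell described above that held most of its UMIs, and were not recomputed without it.

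Other epithelial antimicrobial genes were counted in the same comparisons. Of 22 such genes 8 were measured, 7 higher and 1 lower in saline than in uninjured epithelium. The cornified envelope gene Sprr1a was at 69.0 and 3920.3 CPM, the antiprotease-like Wfdc2 at 209 and 943 CPM, Wfdc18 at 1.52 and 48.6 CPM, and the beta-defensin Defb1 was the lower one at 279 and 115 CPM. Between losartan and saline 0 were higher and 6 of 8 lower, among them Wfdc2 (274 CPM) and the ribonuclease Rnase4 (60.1 and 26.5 CPM). Of the S100 and peptidoglycan recognition relatives, 8 of 10 measured were higher in saline than in uninjured epithelium and 0 lower. S100a6 was at 15062 and 22253 CPM, S100a11 at 2704 and 7297 CPM, S100a10 at 2676 and 4385 CPM, S100a4 at 8.85 and 95.8 CPM, and Pglyrp4 at 3.85 and 46.0 CPM. Between losartan and saline 2 of 10 were lower, Pglyrp4 (20.01 CPM) and S100a3 (85.8 and 51.0 CPM), and 0 higher. Of the receptors and partners 7 of 10 were higher and 1 lower in saline than in uninjured epithelium: the lipopolysaccharide co-receptor Cd14 was at 1.69 and 29.1 CPM, Anxa2 at 2181 and 3783 CPM and the receptor Tgfbr1 at 149 and 58.7 CPM.

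In stroma Saa3, Ptx3 and Lcn2 were high in the losartan library and at or near 0 in the other 2. Saa3 was at 0.488 CPM (2 UMIs) in uninjured, 5.91 CPM (14 UMIs) in saline and 693 CPM (678 to 709) in losartan stroma, a losartan to saline ratio of 117 (69.9 to 215). Ptx3 had 0 UMIs in uninjured and 1 in saline stroma and was at 334 CPM (323 to 344) in losartan. That level was 456-fold a floor of 3 counts for the whole uninjured class. The counting interval of the losartan to uninjured ratio started at 370. The Ptx3 ratio to saline was 791 (142 to 31240), a wide interval set by the single saline UMI. Lcn2 was at 0.244 CPM (1 UMI), 10.5 CPM (25 UMIs) and 185 CPM (178 to 194), a ratio of 17.6 (11.9 to 27.2) between losartan and saline. Slpi was at 70.1, 95.4 and 188 CPM, 1.98-fold higher (1.72 to 2.28) in losartan than saline. With cells thinned to 1000 UMIs the saline and losartan levels were 12.9 and 117 CPM for Lcn2, 5.74 and 419 CPM for Saa3 and 1.43 and 162 CPM for Ptx3. Each difference was smaller, but the thinned saline levels rest on at most the 25, 14 and 1 UMIs above, without an interval. The saline and losartan stroma differed in depth, with medians of 2769 and 10447 UMIs. After scaling by the median ratio over genes the Slpi difference was at a log2 of 0.58 against 0.95 and no longer passed the rule.

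The losartan stromal signal lay in cluster 17, led by Mmp3, Serpina3n and Timp1. Its 370 losartan cells held 7706 of the 8490 Saa3 UMIs, 3707 of the 3738 Ptx3 UMIs and 2057 of the 4386 Lcn2 UMIs of the library. Levels there were 771 CPM for Saa3, 371 for Ptx3, 206 for Lcn2 and 204 for Slpi, and 35.7%, 43.0%, 43.0% and 61.9% of cells had a UMI at a median depth of 26562.5. In each case 50% of the UMIs were held by 14, 15, 20 and 32 cells. Over the cells Lcn2 correlated with Ptx3 at 0.442, Saa3 with Ptx3 at 0.383 and Lcn2 with Saa3 at 0.351. Only 15 saline cells fell in this cluster. They held 0 Saa3, 0 Ptx3, 4 Lcn2 and 64 Slpi UMIs, with 50% of the Slpi in 1 cell, so a matched comparison within cluster 17 rests on 15 cells. In cluster 9, which both injured libraries filled, Lcn2 was at 10.8 CPM in saline and 2.83 in losartan, Slpi at 83.3 and 45.3 CPM (ratio 0.544, 0.360 to 0.798), and Saa3 had 0 UMIs in losartan. The losartan cells of cluster 9 were shallow, with a median of 2182 UMIs.

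These 4 genes were above free RNA in losartan stroma with either panel. Lcn2 was 244 and 614 times the expected level, Saa3 2121 and 7249 times, and Slpi 49.999 and 99.5 times. In the 587 of 717 losartan stromal cells with no UMI of the first neutrophil panel, Saa3 was at 732 CPM, Ptx3 at 356, Lcn2 at 185 and Slpi at 173 CPM. The 597 such saline cells held them at 4.67, 0.519, 11.4 and 71.6 CPM. Median depths of these cells were 3714 UMIs in losartan and 2759 in saline. In losartan cluster 17, 16 of 18 neutrophil markers had a UMI and summed to 90.3 CPM, with Cd177 and Mrgpra2b at 0, and the macrophage markers Adgre1 and Ccr2 were also at 0.

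S100a9 in stroma was near or below the level expected from free RNA in both injured libraries, and so was S100a8 with saline. S100a8 was at 0.244 CPM (1 UMI) in uninjured, 73.4 in saline and 26.6 in losartan stroma, and S100a9 at 0, 92.0 and 8.001 CPM. With cells thinned to 1000 UMIs S100a9 was at 108 CPM with saline and 23.9 CPM with losartan. The saline S100a9 level was at least 126-fold that of uninjured stroma against the floor. In saline the observed levels were 1.66 (S100a8) and 1.12 (S100a9) times the expected ones with the first panel, and 1.42 and 0.959 times with the second. Lcn2 in saline stroma was likewise 1.31 and 1.12 times expected, and Pglyrp1 0.998 and 0.991 times. In losartan stroma S100a9 was 0.377 and 0.934 times expected, while S100a8 was 2.03 and 5.11 times. The S100a9 to S100a8 ratio there was 0.301 (0.235 to 0.382), below that of the losartan neutrophils, and 25 of 717 cells held 50% of the 296 S100a8 UMIs. Lrg1 had 0, 4 and 12 UMIs in uninjured, saline and losartan stroma and Ltf 0, 17 and 19.

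By the fold rule 3 of 5 measured members were higher (S100a8, S100a9, Lcn2) and 0 lower in saline than in uninjured stroma, where 13% of all genes were higher and 35.8% lower. Between losartan and saline 4 of 7 were higher and 3 lower, where 34.6% were higher and 17.7% lower. Between losartan and uninjured stroma 5 of 6 were higher and 1 lower, where 16.5% were higher and 22.2% lower. The median log2 ratios of the members were 1.57, 0.95 and 3.89, against -0.38, 0.29 and -0.11 for all genes. Scaling by the median ratio over genes shifted the 3 comparisons by -0.44, 0.38 and -0.09. The 3 members lower in losartan than saline stroma were S100a8, S100a9 and Pglyrp1 (10.97 and 4.76 CPM). For Pglyrp1 the log2 ratio of -0.71 was -0.50 with cells thinned to 1000 UMIs. The summed level of 15 macrophage markers was 1765 CPM in saline and 245 CPM in losartan stroma, and that of 22 epithelial markers 1829.9 and 1135 CPM.

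The related lists in stroma were read against the same background, in which 34.6% of genes were higher. Of the inducing cytokines, receptors and transcription factors 17 of 21 measured were higher and 3 lower in losartan than saline stroma. The transcription factor genes Cebpd (227 and 1656 CPM), Nfkb1 (139 and 1002 CPM) and Cebpb (273 and 786 CPM), the interleukin-1 receptor Il1r1 (9.28 and 156 CPM) and Il6 (2.11 and 54.7 CPM) were among the higher ones. Of the other acute phase genes 4 of 8 were higher and 2 lower, with the antichymotrypsin-like Serpina3n at 37.6 and 630 CPM, Saa2 at 0 and 24.1 CPM, and, as the most abundant of the list, the ferritin genes Fth1 (7442 and 6210 CPM) and Ftl1 (3003 and 1937 CPM). Of the receptors and partners 8 of 16 were higher and 3 lower. The gene of the matrix protein Tnfaip6, which binds pentraxin 3, was among the higher ones at 32.1 and 288 CPM. Of the S100 and peptidoglycan recognition relatives 7 of 8 were higher and 1 lower, S100a4 being at 73.0 and 993 CPM. Cluster 17 makes up most of the losartan RNA here. In saline it held 15 of the 701 stromal cells, at a median depth of 25152 UMIs against 2769 in the class. These values therefore also compare clusters.

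In macrophage or monocyte-like cells Slpi, S100a8, S100a9, Lcn2 and Saa3 were lower with losartan. Slpi was at 1164 CPM (1143 to 1185) with saline and 50.3 CPM (44.0 to 57.3) with losartan, 23.1-fold lower. In saline 26 of the 660 cells held 50% of the Slpi UMIs. S100a8 was at 118 and 17.7 CPM, 6.66-fold lower (5.31 to 8.46), and S100a9 at 50.7 and 15.7 CPM, 3.24-fold lower (2.52 to 4.21). With cells thinned to 1000 UMIs S100a9 was at 132 and 18.5 CPM, and with no doublet removal the log2 ratio of S100a8 was -1.72 against -2.44. Lcn2 was at 44.3 CPM (460 UMIs) and 0.662 CPM (3 UMIs), a ratio of 66.9 (22.7 to 326), and 10 cells held 50% of the saline UMIs. Saa3 was at 95.5 and 45.9 CPM, 2.08-fold lower (1.79 to 2.43), with 50% of its UMIs in 6 and 2 cells. By the fold rule 0 of 5 measured members were higher and 5 lower, where 7.49% of all genes were higher and 5.02% lower. The median log2 ratio was -2.44 for the members and 0.08 for all genes.

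The carried neutrophil share in these cells was higher in saline with either panel. It was 3.40% in saline and 1.57% in losartan with the first, and 0.293% and 0.078% with the second. The 18 neutrophil markers summed to 3438 CPM in saline and 2197 CPM in losartan macrophages. Of these 18 and 17 were detected, with Mrgpra2b at 0 in losartan. The sum is not a measure of neutrophil RNA, since markers such as Trem1 stood at levels of their own. Trem1 was at 144 and 55.8 CPM, and Retnlg at 5.39 and 0.662 CPM. S100a9 was 0.091 and 0.058 times the expected level in saline and losartan with the first panel, and 1.05 and 1.13 times with the second. S100a8 was 0.392 and 0.106 times with the first and 4.52 and 2.07 times with the second, and Lcn2 in saline 0.818 and 9.45 times. Saa3 was above free RNA in both libraries with either panel (14.9 and 172 times in saline, 11.3 and 21.6 times in losartan), and Slpi was 7.80 and 82.2 times in saline, and 1.32 and 15.8 times in losartan. The S100a9 to S100a8 ratio was 0.431 (0.389 to 0.478) in saline and 0.887 (0.636 to 1.24) in losartan, below those of neutrophil-like cells in both. Among macrophages without a UMI of the first panel (134 saline, 172 losartan), Slpi was at 178 and 17.7 CPM and S100a8 at 44.3 and 17.2 CPM. S100a9 was at 36.3 and 13.9 CPM and Saa3 at 67.3 and 14.4 CPM. The Slpi and S100a8 differences were smaller there and the Saa3 difference larger. These cells had median depths of 5690.5 UMIs in saline and 9022 in losartan, against 15255.5 and 10245 in the class. That panel includes Trem1, which macrophages hold at a level of their own, so the choice does not select on neutrophil RNA alone. Lymphoid markers summed to 456 CPM in saline with 13 of 13 detected and to 268 CPM in losartan with 12 of 13 detected, so the class also held lymphoid RNA. Its part in the differences was not tested. Of the inducing genes 0 of 22 measured were higher and 6 lower in losartan than saline macrophages, with Il1b at 2038 and 951 CPM and the lymphoid cytokines Il22 at 85.4 and 0 CPM and Il17a at 44.0 and 5.08 CPM. Of the receptors and partners 1 of 18 was higher and 3 were lower.

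In dendritic-like cells single saline cells held most of the S100a8, S100a9 and Ptx3 UMIs. S100a8 was at 85.0 CPM in saline and 7.33 in losartan, S100a9 at 143 and 10.5 CPM and Ptx3 at 23.8 and 1.05 CPM, while Slpi was at 14.7 and 12.6 CPM. One saline cell held 130 of 150 S100a8 UMIs, 1 held 213 of 253 S100a9 UMIs and 1 held 38 of 42 Ptx3 UMIs. Without the top cell of each gene the saline levels were 11.48, 23.0 and 2.30 CPM, and the differences in S100a8 and Ptx3 no longer passed the rule. By that rule 0 of 4 measured members were higher and 3 lower with losartan, where 12.3% of all genes were higher and 12.5% lower.

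The genes whose levels were most like each member's were found over 14 combinations of class and library with at least 50 cells, by Pearson correlation of log2(CPM + 5) among 7517 genes, as a description. The nearest were Cstdc4 (0.98) for S100a8, Stfa2l1 (0.96) for S100a9, Hsd11b1 (0.97) for Lcn2, Krt18 (0.97) for Ltf, Sod2 (0.91) for Saa3, Dio2 (0.90) for Ptx3, H2-Q10 (0.99) for Lrg1, Asprv1 (0.98) for Pglyrp1 and Tnfrsf26 (0.92) for Slpi. The cytokine gene Csf3 was among the nearest 3 for Lcn2 (0.94), Saa3 (0.91) and Slpi (0.89). Among the members S100a8 and S100a9 correlated at 0.98, Lcn2 and Saa3 at 0.84, and Ltf and Pglyrp1 at 0.71 over the same points, which share libraries and depth.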

How the data were processed

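Single-cell libraries were made from dissociated cornea and limbus, 1 library for each of 3 groups. The authors deposited UMI counts per gene and barcode, per the file headers made with Cell Ranger 8.0.0, and based on GRCm38 per the submitters' processing notes. Other upstream settings are not given in the sources used here. UMIs count captured molecules, so PCR copies are collapsed. The members, gene lists and comparisons were chosen with earlier results of these data known.

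From the counts, barcodes with at least 500 genes and at most 20% mitochondrial UMIs were kept. Doublets simulated from the data (2 per cell) were used to remove 0.8% per 1000 barcodes, 1334 uninjured, 334 saline and 243 losartan barcodes. All libraries were clustered together on 2000 variable genes without the 9 members, 30 components, 20 neighbours and Leiden resolution 0.8 (igraph 0.11.9, leidenalg 0.10.2, numpy 2.4.6, scipy 1.17.1, pandas 2.3.3, matplotlib 3.10.9, Python 3.11.15, seed 1). Clusters were named from 17 marker lists, with naming thresholds set after the clusters were seen: at least 3 markers detected in at least 10% of cells and a marker score of at least 0.5. A cluster also stayed unnamed if its depth was below 1/3 of the library median and none of its own markers was among its top 10 genes. By this rule clusters 7, 12 and 16 were left unnamed, with epithelial scores of 0.70, 0.60 and 0.73. They held 1084, 907 and 414 uninjured cells. The kept cells held 144133577, 66612232 and 83149755 UMIs. Unnamed clusters held 2427, 177 and 381 cells.

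Counts were summed by class and library where a class had at least 20 cells. Levels have exact Poisson intervals, shares of cells exact Clopper-Pearson intervals and ratios exact conditional binomial intervals, all at 95% and for counting error only. Log2 ratios use CPM + 5, which understates changes of low genes. The named genes are the 9 members and, from each of 6 related lists, the 3 with the highest CPM and the 2 with the largest ratio; not all of these are printed. For each member the 3 most correlated genes were found among those with at least 50 CPM in at least 1 combination. Alternatives were another pseudocount, scaling, expression minimum, fold, cell filter, resolution, thinning, doublet removal and free-RNA panel, and members among the variable genes; the second panels and the fit without the top cell were added after seeing the data. The scripts were tested on simulated data. RefSeq promoter sequences matched all 9 symbols.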

Additional observations from a re-analysis of the deposited data

Results flagged for a closer look

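In 4 genes the losartan library moved in opposite directions from the saline library in 2 cell classes. With 1 library per group these differences were not tested. For Lcn2 the log2 ratio of CPM + 5 was 3.61 in stroma and -3.12 in macrophage or monocyte-like cells, a difference of 6.74. For Saa3 it was 5.9998 in stroma and -0.98 in macrophage or monocyte-like cells, a difference of 6.98. For Slpi it was 0.95 in stroma and -4.40 in macrophage or monocyte-like cells, a difference of 5.35. For Ptx3 it was 5.96 in stroma and -2.25 in dendritic-like cells, a difference of 8.22, where 1 saline cell held 38 of the 42 dendritic UMIs. The higher stromal levels lay in cluster 17, which held 15 saline cells. In stromal cluster 9, which both injured libraries filled, Slpi was lower with losartan (ratio 0.544, 0.360 to 0.798). Lcn2 there was at 10.8 CPM in saline and 2.83 in losartan, with an interval of the ratio that reached 1.07. The stromal Slpi ratio did not pass the rule after median-of-ratios scaling.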

How the results depend on the processing

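No paired analysis was possible because each group has 1 library, and for the same reason no replicate could be left out. Of 98 recomputed counts of members past the fold rule 93 stayed within 1.5 times the reported count, and of 54 counts of members above free RNA 40 did. Of the 496 recomputed single log2 ratios 261 stayed within the counting interval of the reported ratio and 235 moved outside it. None reversed, where a reversal was counted only for ratios past the fold rule. At a fold of 2 the count of members called between losartan and saline was 2 against 4 in neutrophil-like cells and 2 against 5 in epithelium. With cells thinned to 1000 UMIs it was 3 against 5 in epithelium and 6 against 3 in dendritic-like cells. With no expression minimum it was 5 against 3 between saline and uninjured stroma. Members above free RNA were 3 in saline macrophages against 6 with Retnlg alone as the neutrophil panel and 6 with the second panels. In losartan macrophages they were 1 against 3 with each of those and 3 with neutrophils as the only source. In dendritic-like cells they were 1 in saline against 4 with Retnlg alone, and 0 in losartan against 3 with Retnlg alone and 1 with the second panels. In epithelium they were 2 in saline against 4 with the second panels, and 3 in losartan against 5 with neutrophils as the only source. In saline stroma they were 1 against 2 with Retnlg alone, 4 with neutrophils as the only source, 0 at an observed to expected ratio of 10, and 2 with a minimum of 200 genes per cell. The cause of each of these changes was not tested. At resolution 0.4 the dendritic-like cells joined the macrophage cluster and gave no value of their own.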

Other observations

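Some cells that carried members were in clusters left without a name. Uninjured cluster 16 (414 cells, median depth 1143 UMIs) held Pglyrp1 at 650 CPM. Cluster 14 held S100a8 at 106 CPM in saline and 23.1 CPM in losartan, S100a9 at 87.0 CPM in saline, and 23 of the 73 Ptx3 UMIs of the saline library. In vascular endothelial-like cells of the uninjured library 1 cell held all 6 Ptx3 UMIs of that library.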
